A study of Homo sapiens with 3 samples.

Results

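The distal telomeric stretch of the 8q24.21 locus comprises the HindIII target fragments of chromosome 8 that lie between 130700485 and 133470606 (GRCh37), seen from every captured fragment of the locus. It held 821 of the 3033 target fragments of 8q24.21 within 5 Mb of the capture, and 9023 such fragments were read at the 3 breast cancer risk loci together. Members were chosen by position alone, as fragments whose midpoint fell in the stretch. The stretch spans 2.77 Mb, begins 2.23 Mb beyond the telomeric edge of the captured region and ends 5.00 Mb beyond it. The captured region runs from 127886760 to 128470692 and holds 192 fragments, so the stretch was measured in 157632 pairs of a captured and a target fragment. The median member was 2360 bp long, and 114 members were shorter than 500 bp.

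In capture Hi-C, DNA that is near other DNA inside fixed nuclei is cut and joined, and the joined pieces that include a chosen region are pulled out by hybridisation. Three-dimensional contact falls steeply with distance along a chromosome, so that a contact over megabases is read against the level that its distance predicts. The captured part of 8q24.21 is a gene-poor region with risk variants for breast and other cancers, and the nearest well-known gene on its telomeric side is the transcription factor gene MYC. Far beyond MYC, in RefSeq order, come GSDMC, a gasdermin family member, FAM49B (now CYRIB), a regulator of RAC1-driven actin remodelling, and ASAP1, an activator of the GTPase activity of ARF proteins. Next come ADCY8, an adenylyl cyclase that makes cyclic AMP, EFR3A, a membrane anchor for phosphatidylinositol 4-kinase, OC90, an inner-ear otoconial protein gene, HHLA1, and KCNQ3, a potassium channel subunit. The RefSeq table lists 8 protein-coding genes from GSDMC to KCNQ3, with 14 long non-coding RNAs, 7 pseudogenes, 1 miRNA and 1 small nucleolar RNA. Its positions belong to another genome build, so no window or fragment was assigned to a gene.

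BT483 is a breast cancer line from a primary invasive ductal carcinoma. SUM44 is a breast cancer line too, started from cells of a pleural effusion, and GM06990 is a lymphoblastoid line from B lymphocytes. Each line gave 2 replicate columns, and nothing in the labels says that they were separate cultures, so p-values measure only the spread between these columns, which may be technical. All lines were fixed in the same way with formaldehyde. Trypsin was used to lyse BT483 and a dounce to lyse the other lines, and culture media differed, so line and preparation cannot be told apart. The labels name no molecular identifiers, so the intervals given for counts speak of counting error alone.

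Contacts with the stretch numbered 12942 and 58617 in BT483 replicates 1 and 2, 15031 and 15719 in GM06990, and 56392 and 49649 in SUM44. Contacts are thus thin in BT483 replicate 1 and in both GM06990 replicates. The replicates of BT483 stood apart from each other. Across the 56 windows of 50 kb that tile the stretch, their contact profiles correlated with r = 0.43, against 0.89 in GM06990 and 0.95 in SUM44. These are correlations over windows of the same libraries and are given as a description. BT483 replicate 1 correlated with the SUM44 replicates at 0.58 and 0.60, above its value with its own replicate. Over 2146 windows of 1 Mb on other chromosomes, seen from the 5 other captured regions, the replicates of BT483 correlated at 0.78 and those of GM06990 and SUM44 at 0.97 and 0.99. Counts of windows and fragments called with BT483 are therefore also given without each of its replicates. The replicates of GM06990 differed in yield against trans contacts (contacts with other chromosomes), at 49.1 and 24.9 contacts with the stretch per 1000.

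Both breast lines placed more of their contacts within 5 Mb in the stretch than GM06990 did. The share of these near cis contacts was 14.8% and 14.2% in BT483 (exact Clopper-Pearson 95% intervals 14.5 to 15.0 and 14.1 to 14.3). It was 10.1% and 11.4% in GM06990 (9.99 to 10.3 and 11.3 to 11.6), and 13.4% and 13.2% in SUM44 (13.3 to 13.5 and 13.1 to 13.3). The mean shares were 14.5% ± 0.397 in BT483, 10.8% ± 0.915 in GM06990 and 13.3% ± 0.138 in SUM44 (SD, n = 2). Every breast line replicate lay above both GM06990 replicates. The stretch at the same distances on the centromeric side took 7.91% and 9.85% in BT483, 6.20% and 7.45% in GM06990, and 6.77% and 6.82% in SUM44. A telomeric neighbour nearer to the capture took 25.8% and 27.0%, 26.0% and 22.9%, and 28.6% and 28.5%. BT483 was thus above GM06990 in the centromeric stretch too, and SUM44 in the neighbour. Among near cis contacts on the telomeric side alone, the shares of the distal stretch were 21.5% ± 0.299, 14.5% ± 1.43 and 20.0% ± 0.194 (SD, n = 2), in the same order. No test was run on these shares, since an exact permutation test of 2 against 2 cannot reach 0.05.

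Against trans contacts the order was another. SUM44 gave 117 ± 11.0 contacts with the stretch per 1000 trans contacts of the locus, BT483 36.0 ± 7.19 and GM06990 37.0 ± 17.1 (SD, n = 2). BT483 and GM06990 overlapped on this scale, and SUM44 was above both replicates of each. The choice of scale thus decides whether BT483 stands with SUM44 or with GM06990.

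For its distance, the stretch was contacted more than the matching stretch on the other side of the capture in all 6 replicates. That stretch, from 122887196 to 125657827, lies at the same distances on the centromeric side and holds 846 fragments. Contacts with the telomeric stretch were 1.65 ± 0.301 times those with the centromeric stretch in BT483, 1.59 ± 0.0714 times in GM06990 and 1.95 ± 0.0311 times in SUM44 (SD, n = 2). Relative to the count expected from distance and from the trans count of each captured fragment, the observed over expected ratio of the stretch was highest in SUM44, at 1.29 ± 0.00554, with 1.22 ± 0.0657 for BT483 and 1.20 ± 0.00455 for GM06990 (SD, n = 2). The centromeric stretch was at 0.706 ± 0.0896, 0.721 ± 0.0266 and 0.629 ± 0.00692 (SD, n = 2). The telomeric neighbour from 129199756 to 130700484, between the capture and the stretch, was at 1.32 ± 0.0445, 1.39 ± 0.0768 and 1.35 ± 0.000119 (SD, n = 2). When the expectation was fitted to the telomeric side alone, the stretch itself was at 0.940 ± 0.0190, 0.949 ± 0.0198 and 0.936 ± 1.54e-05 (SD, n = 2). Its excess over 1 is therefore an excess over the mean of both sides, not over its own side.

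Within the stretch, contacts fell off faster with distance in GM06990 than in SUM44. The slope of log10 contacts on log10 distance was -2.19 ± 0.0049 in GM06990 and -1.5 ± 0.00789 in SUM44 (SD, n = 2). BT483 replicate 1 had the shallowest slope, -1.22, and replicate 2 was at -1.84, so the BT483 replicates enclosed the SUM44 values. Single windows departed from the fall in all lines, as the profile of the 50 kb windows shows.

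**Figure D1:**
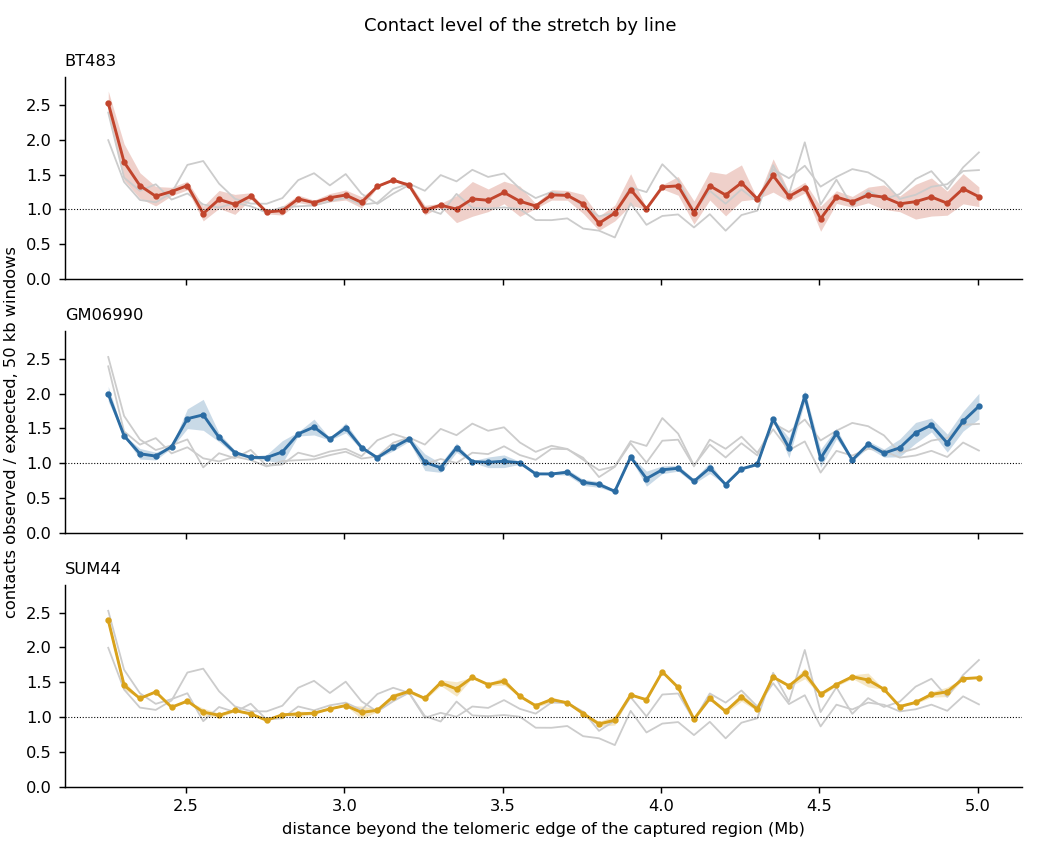
Observed over expected contacts of the 56 windows of 50 kb (vertical axis) against distance beyond the telomeric edge of the captured region in Mb (horizontal axis), 1 panel per line. Coloured points and lines are means of 2 replicates, the shaded band spans the replicates, grey lines repeat the means of all lines, and the dotted line marks a ratio of 1. The window nearest the capture stands highest in every line, and in each of the 10 windows from 132200001 to 132700000 the mean of GM06990 lies below those of both breast lines.

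The highest window of all lines was the nearest, from 130700001 to 130750000. Its observed over expected ratio was 2.70 and 2.35 in BT483, 2.10 and 1.89 in GM06990, and 2.37 and 2.42 in SUM44, on 958 to 4416 contacts. It was the only window whose mean stood above 1.5 in every line, against 36 of the 56 windows with means above 1 in every line and 3 below 1 in every line. The adjoining window, from 130750001 to 130800000, was at 1.68 ± 0.370 in BT483, 1.40 ± 0.00731 in GM06990 and 1.46 ± 0.0882 in SUM44 (SD, n = 2). The fall over 100 kb at the near end of the stretch was thus shared by the lines.

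The other 3 of the 5 highest windows lay at the far end of the stretch. The window from 132900001 to 132950000 was highest in GM06990, at 1.96 ± 0.115, with 1.31 ± 0.109 in BT483 and 1.63 ± 0.110 in SUM44 (SD, n = 2). From 132800001 to 132850000 BT483 had a ratio of 1.49 ± 0.338, GM06990 of 1.64 ± 0.0176 and SUM44 of 1.58 ± 0.0110 (SD, n = 2). The lines overlapped there within the spread of BT483. The last window starts at 133450001 and holds fragments up to 133470606. It was at 1.18 ± 0.200, 1.82 ± 0.260 and 1.57 ± 0.0169 in BT483, GM06990 and SUM44 (SD, n = 2). Its height depended on the fit to both sides. With the expectation fitted to the telomeric side alone it was at 1.07 and 1.04 in BT483, 0.918 and 1.21 in GM06990, and 1.07 and 1.12 in SUM44.

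The 5 lowest windows all lay between 132200001 and 132700000. In GM06990 their ratios ran from 0.599 ± 0.0228, in the window from 132300001 to 132350000, to 0.742 ± 0.0480, in that from 132550001 to 132600000 (SD, n = 2). In SUM44 the same 5 windows ran from 0.902 ± 0.0498, in the window from 132250001 to 132300000, to 1.08 ± 0.0419, in that from 132650001 to 132700000 (SD, n = 2). BT483 ran from 0.803 ± 0.145 to 1.21 ± 0.424 over those 2 windows (SD, n = 2). This is the segment of the stretch in which GM06990 made the fewest contacts for the distance.

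A description that uses no distance background is the part of each line's contacts with the stretch that falls in each 500 kb of it. In the part from 132200001 to 132700000, GM06990 placed 8.12% and 7.93% of its contacts. There BT483 placed 14.1% and 11.5% and SUM44 13.1% and 13.1%, so both breast lines lay above GM06990 in both replicates. In the part before it, from 131700001 to 132199280, the values were 14.1% and 13.1% in GM06990, 17.0% and 14.7% in BT483 and 19.3% and 19.2% in SUM44. GM06990 was again the lowest and SUM44 the highest, with no overlap between lines.

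Nearer to the capture the order turned. From 131200001 to 131700000, GM06990 placed 24.4% and 26.4% of its contacts, BT483 18.7% and 22.1%, and SUM44 18.4% and 18.4%. In the nearest part, from 130700001 to 131198692, the values were 36.5% and 35.7% in GM06990, 30.2% and 34.3% in BT483 and 31.0% and 31.0% in SUM44. Both parts were thus higher in GM06990 than in every breast line replicate. Because the parts add up to 100% within a line, a higher share in some parts goes with a lower share in others. In the last parts, from 132700001 to 133200000 and from 133200001 to 133470606, the mean shares were 13.4% ± 0.392 and 5.26% ± 1.45 in BT483, 11.9% ± 0.173 and 5.04% ± 0.144 in GM06990, and 13.5% ± 0.0610 and 4.68% ± 0.135 in SUM44 (SD, n = 2).

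**Figure D2:**
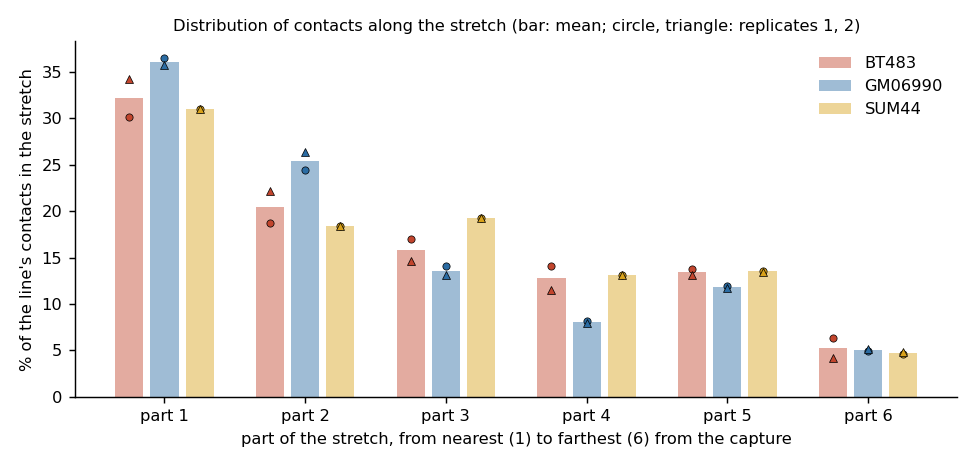
Percent of each line's contacts with the stretch (vertical axis, from 0) in 6 consecutive parts of 500 kb, the last one shorter (horizontal axis). Bars are means of 2 replicates, circles are replicates 1 and triangles replicates 2. GM06990 is highest in parts 1 and 2 and lowest in parts 3 and 4, where its replicates lie below all 4 replicates of the breast lines.

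Counts per 50 kb window were compared between lines with edgeR's quasi-likelihood test, which took the log of the expected counts as its offset. Benjamini-Hochberg adjustment ran over the 605 windows of the 3 risk loci, and windows with an adjusted p under 0.05 count as called. Against GM06990, 16 of the 56 windows of the stretch were higher in SUM44 and 6 were lower, with a background of 24.8% higher and 29.8% lower among all windows tested. In BT483, 10 were higher and 4 lower, with a background of 19% and 14.5%. The median log2 change over the 56 windows was 0.19 for SUM44 and 0.06 for BT483, against -0.03 and -0.00 over all windows tested. Increases were called at 28.6% of the windows in SUM44 and 17.9% in BT483, near the background, and decreases at 10.7% and 7.14%, below it. The calls were not spread evenly along the stretch.

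In SUM44 against GM06990, 7 of the 10 windows from 131700001 to 132199280 and 7 of the 10 from 132200001 to 132700000 were called higher, and none of these 20 lower. All 20 had a positive log2 change, with medians of 0.50 and 0.58. Of the 20 windows nearer to the capture, 6 were called lower and none higher. These decreases came near the background share of 29.8%, so they describe place within the stretch, not an excess over the loci. BT483 showed 6 of 10 windows called higher from 132200001 to 132700000, all 10 with a positive change and a median of 0.49. Between 131700001 and 132199280 it had 2 called higher and a median of 0.15. Both comparisons share the GM06990 replicates, so their likeness is not independent.

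The window from 132450001 to 132500000 changed most between SUM44 and GM06990. It held 1238 and 1090 contacts in SUM44, 155 and 183 in GM06990 and 239 and 1061 in BT483. The observed over expected ratios were 1.66 and 1.64 in SUM44, 0.852 and 0.963 in GM06990, and 1.35 and 1.29 in BT483. SUM44 lay highest, BT483 between, and no replicates overlapped. The log2 change was 0.86 ± 0.13 for SUM44 against GM06990 (SE, edgeR adjusted p = 0.000172) and 0.54 ± 0.14 for BT483 (adjusted p = 0.00903).

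The window just before it, from 132400001 to 132450000, was at 1.25 and 1.25 in SUM44 and 0.889 and 0.671 in GM06990, a log2 change of 0.68 ± 0.15 (SE, edgeR adjusted p = 0.00183). From 132300001 to 132350000 the ratios were 1.02 and 0.887 in SUM44, 1.06 and 0.836 in BT483, and 0.615 and 0.582 in GM06990. The breast lines overlapped each other there and both lay above GM06990, by 0.68 ± 0.16 and 0.63 ± 0.16 on the log2 scale (SE, edgeR adjusted p = 0.00289 and 0.0101). BT483 had its largest increase from 132650001 to 132700000, 0.71 ± 0.22 (SE, edgeR adjusted p = 0.0260). Its replicates were at 1.51 and 0.909 in that window, against 0.695 and 0.696 in GM06990, so the size of the change rests mostly on replicate 1.

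The window lowest in both breast lines against GM06990 was the same. The window from 131000001 to 131050000 was at 1.47 and 1.92 in GM06990, 0.836 and 1.05 in BT483, and 1.01 and 1.13 in SUM44. Both breast lines lay at or near the distance expectation and GM06990 above it. The log2 changes were -0.82 ± 0.16 in BT483 and -0.66 ± 0.15 in SUM44 (SE, edgeR adjusted p = 0.00192 and 0.00271). Next in SUM44 came the windows from 131350001 to 131400000 and from 131300001 to 131350000, with log2 changes of -0.52 ± 0.13 and -0.44 ± 0.12 (SE, edgeR adjusted p = 0.00391 and 0.00625). The window from 131350001 was also called lower in BT483, by a log2 change of -0.48 ± 0.13 (SE, edgeR adjusted p = 0.0138), a value that the naming rule does not cover and that was chosen after it was seen. The other 2 windows lower in BT483 were at the far end, with -0.68 ± 0.18 in the last window and -0.56 ± 0.14 from 132900001 to 132950000 (SE, edgeR adjusted p = 0.0123 and 0.00687).

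**Figure D3:**
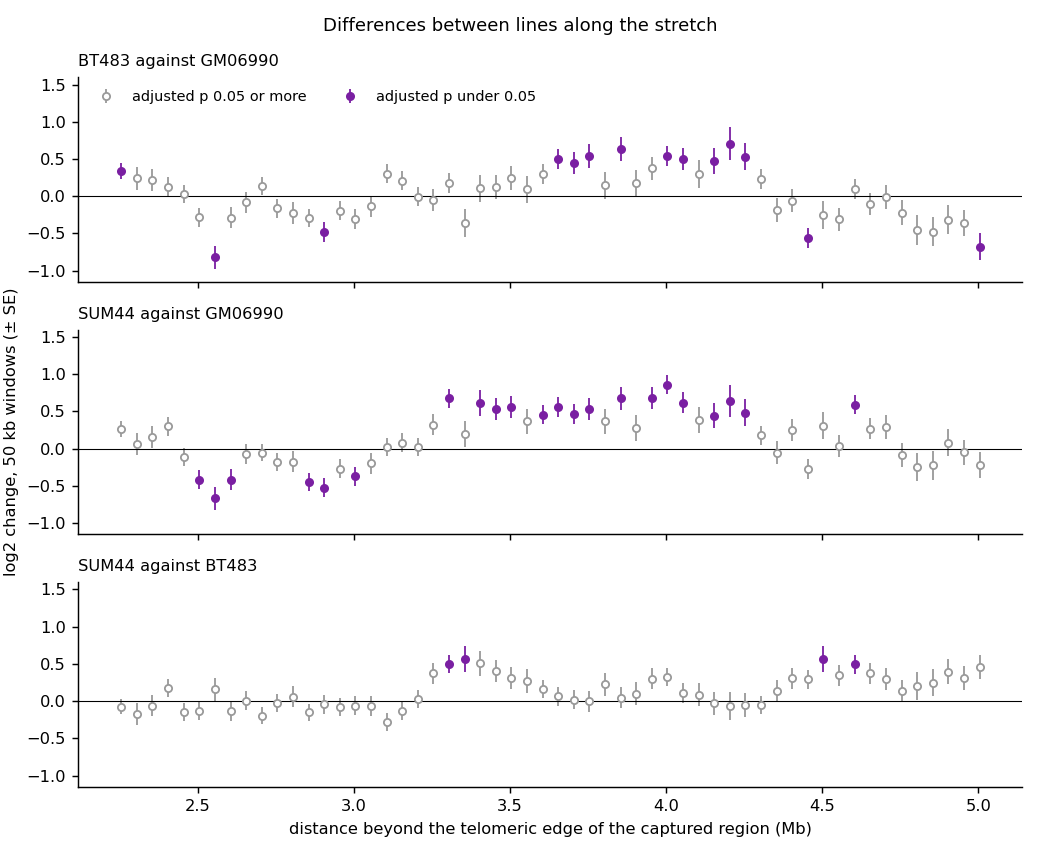
Log2 change of the 56 windows of 50 kb with its SE (vertical axis) against distance beyond the telomeric edge of the capture in Mb (horizontal axis), 1 panel per comparison. Filled points have an edgeR adjusted p under 0.05. Of the 16 called increases of SUM44 against GM06990, 7 and 7 lie in the parts from 131700001 and from 132200001. Its 6 called decreases lie nearer to the capture, where they come near the background share of 29.8%.

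These calls depended on how counts were scaled. With near cis totals in place of the distance background, 29 windows were higher and 3 lower in SUM44, where all 605 windows gave 115 and 214. In BT483 these totals gave 33 and 1, against 174 and 78 over all windows. Trans totals gave 39 and 0 in SUM44, against 244 and 0 over all windows, and none either way in BT483, in the stretch or over all windows. TMM factors gave 38 and 0 in SUM44, against 164 and 172, and 52 and 0 in BT483, against 185 and 155. With the telomeric-side background the splits were 3 and 8 in SUM44, against 139 and 180, and 2 and 4 in BT483, against 115 and 88. The median over all 605 windows was 0.16 and -0.15 with near cis totals, -0.18 and 1.34 with trans totals, and -0.05 and -0.02 with TMM factors, for BT483 and SUM44. The shares per 500 kb given above involve no such scaling.

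Leaving out single replicates moved the counts too. Without BT483 replicate 1, 9 windows were higher and 12 lower in BT483 than in GM06990, and without replicate 2 they were 17 and 6. SUM44 against GM06990 then had 25 higher and 8 lower in either case. Without GM06990 replicate 1 the splits were 2 and 5 in BT483 and 12 and 5 in SUM44, and without GM06990 replicate 2 they were 1 and 1 in BT483 and 7 and 3 in SUM44. Without either SUM44 replicate, 9 were higher and 1 lower in SUM44 than in GM06990. Counts over all windows are not set beside these, so they describe only how steady the calls of the stretch were.

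SUM44 and BT483 differed directly in 4 windows, all higher in SUM44, with a background of 3.14% higher and 9.09% lower. The count lower in SUM44 was 0, with 16 windows of either direction at an unadjusted p under 0.05. DESeq2 called 3 higher and 0 lower, against 13 and 33 over all windows tested. The window from 131750001 to 131800000 was at 1.54 and 1.45 in SUM44, 1.09 and 1.04 in BT483, and 1.00 and 0.870 in GM06990. Its log2 change was 0.50 ± 0.12 (SE, edgeR adjusted p = 0.0236). The next window, from 131800001, changed by 0.56 ± 0.17, that from 132950001 by 0.56 ± 0.17 and that from 133050001 by 0.49 ± 0.13 (SE, edgeR adjusted p = 0.0471, 0.0480 and 0.0259). Without BT483 replicate 1, 19 windows were higher in SUM44. Without BT483 replicate 2 there were 3 higher and 1 lower, without either GM06990 replicate 2 higher, and without either SUM44 replicate none. These counts too are given without those over all windows.

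Single target fragments hold far fewer contacts than windows. Of the 821 members, 771 had at least 50 contacts in 1 line and were tested, with adjustment over 5466 fragments of the 3 loci. In SUM44 against GM06990, 51 were higher and 23 lower, with a background of 13.8% and 10.6%. In BT483 there were 16 higher and 20 lower, with a background of 7.45% and 5.18%. The stretch thus held a smaller share of called fragments than the loci as a whole, 6.61% and 2.98% for SUM44. The medians over its tested fragments were 0.20 for SUM44 and 0.05 for BT483 on the log2 scale, against 0.09 and 0.06 over all fragments tested. Without BT483 replicate 1, BT483 had 25 higher and 45 lower than GM06990, and without replicate 2 it had 15 and 8. The balance of its calls thus turned with the replicate left out. Over all 5466 fragments the counts were 628 and 461, and 204 and 181, with more higher than lower in both. Of the 771 fragments tested, 130 reached the minimum of 50 contacts in SUM44 alone, 2 in BT483 alone and 0 in GM06990 alone. Those 130 include 13 of the 51 increases and 1 of the 23 decreases in SUM44.

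By place, the fragments repeated the order of the windows made from them. In SUM44, 21 of 161 tested fragments from 131700001 to 132199280 and 18 of 144 from 132200001 to 132700000 were higher and 0 lower. In the first 1 Mb of the stretch 7 were higher and 20 lower. In the parts from 131700001 and 132200001 the increases came at no more than the background share of 13.8%. In the first 1 Mb the decreases came below the background share of 10.6%. The counts thus describe place within the stretch, not an excess over the loci. DESeq2 called 9 higher and 6 lower in SUM44, against 363 and 319 over all 5466 fragments. In BT483 it called 1 higher and 7 lower, against 216 and 165. With near cis totals the splits were 157 and 18 in SUM44, against 862 and 615 over all 5466 fragments, and 106 and 2 in BT483, against 629 and 275. With trans totals they were 564 and 0 in SUM44, against 2958 and 1, and 0 and 0 in BT483, in the stretch and over all fragments. TMM factors gave 190 and 12 in SUM44, against 900 and 678, and 252 and 0 in BT483, against 943 and 933. With the telomeric-side background they were 19 and 27 in SUM44, against 699 and 494, and 11 and 16 in BT483, against 412 and 207. The median over all fragments was 0.23 and 0.09 with near cis totals and -0.11 and 1.57 with trans totals, for BT483 and SUM44.

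Fragment length moved with the direction of the calls. The median length was 2434 bp over the fragments tested, 748 bp over the 51 higher in SUM44 and 4704 bp over the 23 lower. In BT483 it was 326 bp over the 16 higher and 4556 bp over the 20 lower. Of fragments under 500 bp, 19 were among the increases of SUM44 and 10 among those of BT483, and none among the decreases of either. The 114 members under 500 bp took 6.59% and 7.04% of the contacts of GM06990 with the stretch, 8.97% and 10.3% of those of BT483, and 9.77% and 9.87% of those of SUM44. Short fragments were thus read less often in both GM06990 replicates than in any breast line replicate. Tested without fragments under 500 bp, 32 were higher and 23 lower in SUM44, against 559 and 552 over all 4863 fragments of that length. In BT483, 6 were higher and 16 lower, against 267 and 267.

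**Figure D4:**
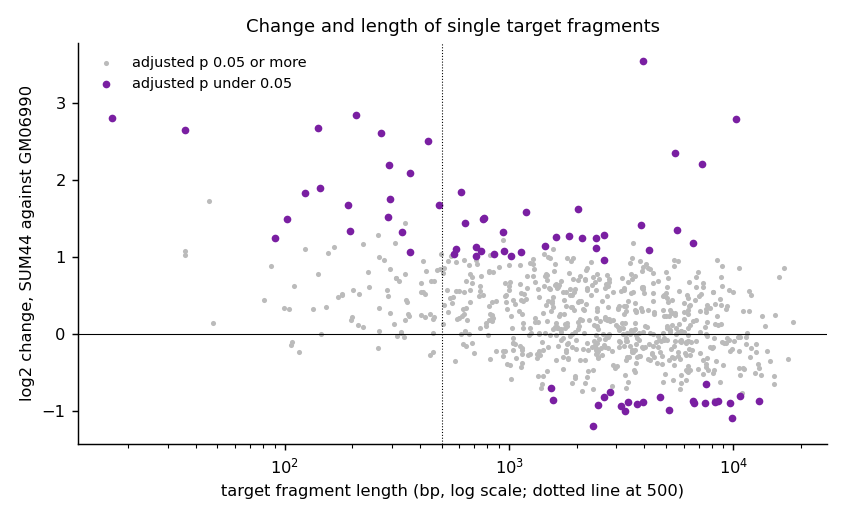
Log2 change of the 771 tested target fragments in SUM44 against GM06990 (vertical axis) against fragment length in bp on a log axis (horizontal axis), with a dotted line at 500 bp. Purple points have an edgeR adjusted p under 0.05. Of the 51 called increases 19 lie left of the line, and all 23 called decreases lie right of it.

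The order along the stretch was the same over the longer fragments alone. Among members of at least 500 bp, the part from 132200001 to 132700000 took 7.86% and 7.70% of the contacts of GM06990, 13.5% and 11.1% of those of BT483, and 12.6% and 12.5% of those of SUM44. From 131200001 to 131700000 the shares were 24.8% and 26.6% in GM06990, 18.8% and 22.3% in BT483, and 18.6% and 18.7% in SUM44. Again no breast line replicate overlapped GM06990.

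The largest increases of single fragments rested on few GM06990 contacts, so they are given as ratios of observed over expected with exact conditional intervals that cover counting error only. The fragment from 132690698 to 132694654 (3957 bp) held 48 and 40 contacts in SUM44, 12 and 26 in BT483, and 2 and 0 in GM06990. It reached the minimum of 50 contacts in SUM44 alone. SUM44 was 12.2 times GM06990 (95% interval 3.28 to 102) and BT483 7.0 times (1.81 to 59.9). From 132235872 to 132236012, a fragment of 141 bp, SUM44 had 34 and 40 contacts, BT483 12 and 44, and GM06990 1 and 2. Its ratios were 6.52 (2.15 to 32.3) for SUM44 and 7.21 (2.34 to 36.0) for BT483. Both fragments were called in both comparisons, with edgeR adjusted p from 0.00213 to 0.0397.

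A fragment of only 17 bp, from 131117856 to 131117872, was also called in both, with 39 and 43 contacts in SUM44, 4 and 51 in BT483, and 1 and 3 in GM06990. The log2 change was 2.80 ± 0.61 in SUM44 and 2.62 ± 0.64 in BT483 (SE, edgeR adjusted p = 0.00238 and 0.0127). In all lines its observed over expected ratio was low, from 0.0364 to 0.565. The other increases named in SUM44 were the fragments from 132471201 to 132471408 (208 bp) and from 132344832 to 132355069 (10238 bp), at 7.38 times (2.44 to 36.5) and 7.20 times (1.90 to 60.9) GM06990. These too reached the minimum in SUM44 alone. BT483 also had the fragments from 131268611 to 131269043 (433 bp) and from 132629329 to 132634812 (5484 bp), with log2 changes of 2.64 ± 0.62 and 2.59 ± 0.60 (SE, edgeR adjusted p = 0.00951 and 0.00884).

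Decreases were smaller and rested on more contacts. The fragment from 131329058 to 131331427 (2370 bp) held 68 and 53 contacts in GM06990, 79 and 73 in SUM44 and 20 and 113 in BT483. Against the expectation it was at 2.94 and 2.11 in GM06990, 1.08 and 1.13 in SUM44, and 1.19 and 1.32 in BT483. GM06990 stood alone above the other lines, and the log2 change of SUM44 was -1.19 ± 0.23 (SE, edgeR adjusted p = 0.00101). Near it, the fragment from 131369094 to 131372381 (3288 bp) was at 2.42 and 2.97 in GM06990 and 1.28 and 1.44 in SUM44. The remaining decreases named in SUM44 started at 133304413, 130981031 and 131000608, with log2 changes of -1.08 ± 0.38, -0.99 ± 0.23 and -0.93 ± 0.23 (SE, edgeR adjusted p = 0.0460, 0.00413 and 0.00541).

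In BT483 the largest decrease was the fragment from 131763585 to 131769883 (6299 bp). Its ratio was 0.493 and 0.770 in BT483, 1.54 and 1.79 in GM06990, and 1.88 and 1.64 in SUM44, so that BT483 lay below both other lines. The log2 change against GM06990 was -1.23 ± 0.33 (SE, edgeR adjusted p = 0.0188). The other decreases named in BT483 started at 131846563, 132972272, 133290058 and 131500266, with log2 changes from -1.22 ± 0.40 to -1.07 ± 0.29 (SE, edgeR adjusted p = 0.0492, 0.0492, 0.0432 and 0.0214).

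A pair of adjoining fragments separated the breast lines. They were the 2 members called between SUM44 and BT483, both higher in SUM44, the line through which alone they reached the minimum of 50 contacts, with a background of 0.165% higher and 0.0183% lower among all fragments tested. The fragment from 131851806 to 131852415 (610 bp) held 75 and 58 contacts in SUM44, 3 and 14 in BT483, and 4 and 7 in GM06990. Its ratio was 1.49 and 1.29 in SUM44, 0.262 and 0.251 in BT483, and 0.292 and 0.474 in GM06990. The BT483 replicates lay close together here, and SUM44 stood 2.44 ± 0.35 higher on the log2 scale (SE, edgeR adjusted p = 0.00227). Its neighbour from 131846563 to 131851805 (5243 bp) was at 1.27 and 1.27 in SUM44, 0.522 and 0.412 in BT483, and 1.17 and 0.877 in GM06990. There the log2 change between the breast lines was 1.54 ± 0.31 (SE, edgeR adjusted p = 0.0394), and both GM06990 replicates lay above both BT483 replicates.

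DESeq2 left both fragments without an adjusted p, because its filter on low counts set them aside. It called 0 members in this comparison, against 3 higher and 2 lower over all fragments. At an unadjusted p under 0.05 it had 11 members and edgeR 89. Trans totals gave 666 members higher in SUM44 than in BT483, against 3934 over all fragments, and TMM factors gave 5 higher and 13 lower, against 558 and 163. Without BT483 replicate 1 there were 18 members higher in SUM44, against 90 higher and 160 lower over all fragments. Without replicate 2 there were 7 higher and 1 lower, against 62 and 46. Leaving out any replicate of GM06990 or SUM44 left 1.

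Seen from the other end, the contacts with the stretch were spread over the whole captured region. In each replicate, 54 to 59 of the 192 captured fragments carried 50% of the contacts, and the busiest fragment carried 1.30% to 1.77%. The captured region was split into 4 blocks of 48 fragments each. The block farthest from the stretch, from 127886760 on, had the highest observed over expected ratio in each line, 1.41 ± 0.0977 in BT483, 1.51 ± 0.193 in GM06990 and 1.52 ± 0.0369 in SUM44 (SD, n = 2). The nearest block had the lowest, 1.11 ± 0.0720, 1.04 ± 0.0949 and 1.19 ± 0.0253 (SD, n = 2). 

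The 5 captured fragments with the highest mean ratio over the lines were led by the one from 128192178 to 128201573. It was at 1.73 ± 0.0367 in BT483, 2.89 ± 0.729 in GM06990 and 2.16 ± 0.492 in SUM44 (SD, n = 2). The other 4 lay in the farthest block, starting at 127949613, 127919285, 127889454 and 127891697, with ratios from 1.73 ± 0.0635 in BT483 to 2.54 ± 0.637 in GM06990 (SD, n = 2). GM06990 and SUM44 overlapped in each of these 4, and BT483 lay below both in those starting at 127919285 and 127891697.

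Of the 184 captured fragments with at least 50 contacts in 1 line, 4 differed in BT483 against GM06990, a background of 2.17%, since these are all the captured fragments tested. The fragment from 128314311 to 128319325 held 140 and 533 contacts with the stretch in BT483 and 245 and 278 in GM06990. Its ratio was lowest in BT483, at 1.33 and 1.21, against 1.86 and 1.85 in SUM44 and 2.25 and 2.71 in GM06990. The log2 change was -0.98 ± 0.16 (SE, edgeR adjusted p = 0.000107). That from 128192178 changed by -0.75 ± 0.18, and the fragments from 128282876 to 128283804 and from 128443134 to 128443752 were higher in BT483, by 0.69 ± 0.18 and 0.69 ± 0.19 (SE, edgeR adjusted p = 0.0187, 0.0324 and 0.0442).

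No captured fragment passed the test in SUM44 against GM06990 or in SUM44 against BT483, so percent called was 0 in each. By edgeR 41 and 31 of the 184 had an unadjusted p under 0.05, and DESeq2 also called 0 in both. In the same test of their contacts with the telomeric neighbour, 36 captured fragments were higher and 21 lower in SUM44 than in GM06990, of 187 tested. With the centromeric stretch, 0 were higher and 4 lower of 180. For BT483 the count fell from 4 to 1 without BT483 replicate 1 and to 2 without replicate 2, 1 without GM06990 replicate 1 and 2 without either SUM44 replicate. SUM44 against GM06990 gained 3 calls without BT483 replicate 1, and 1 without GM06990 replicate 2.

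No single pair of a captured fragment and a member stood above the distance background at an adjusted p of 0.01 or less with at least 5 contacts. Over all 582336 pairs of the locus, BT483 had 2 called pairs, GM06990 16 and SUM44 6, a background of 0.000343%, 0.00275% and 0.00103%. The pairs were thin, and the median expected count of a member pair was only 0.322 for BT483, 0.125 for GM06990 and 0.432 for SUM44. At least 5 contacts were reached by 529 member pairs in BT483, 54 in GM06990 and 1393 in SUM44. Of these, 488, 54 and 1099 had an unadjusted one-sided p under 0.05. The minimum of 5 contacts lies above the highest expected count of any member pair, 2.08 for BT483, 0.893 for GM06990 and 2.63 for SUM44. Low p-values were thus largely set by that minimum, and these counts are no support for single contacts.

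The pair nearest to a call joined the captured fragment from 127889454 to 127891696 with the member from 130704066 to 130705196, 2814 kb away. It held 2 and 13 contacts in the BT483 replicates, 13.3 times the expectation (exact Poisson 95% interval 7.47 to 22.0), with an adjusted p of 0.0107 in the negative binomial model. GM06990 had 3 contacts in that pair and SUM44 10. In SUM44 the lowest p belonged to the captured fragment from 127910627 to 127914861 with the member from 130706957 to 130709411, on 6 and 4 contacts, 16.1 times the expectation (7.71 to 29.6) and an adjusted p of 0.100. The other pairs with the lowest p in SUM44, and 1 more in BT483, also ended between 130704066 and 130706956. Thus 5 of the 6 pairs named in the breast lines ended inside the highest window of the stretch, whose counts include theirs.

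In GM06990 the 3 pairs with the lowest p ended elsewhere, at the members from 130977458, 131024598 and 131031418. The first starts just before the window from 131000001 and the others within it, a window higher in GM06990 than in the breast lines. Contacts of the pairs within it are part of its counts, so this likeness is not independent, and no pair was called. The pair at 130977458 joined the captured fragment from 128314311 to 128319325, with 2 and 7 contacts, 18.1 times the expectation (8.26 to 34.3) and an adjusted p of 0.189. BT483 had 2 contacts in that pair and SUM44 4. The remaining pair of BT483 ended at the member from 130897344 to 130905358, outside the highest window, on 2 and 7 contacts, 15.8 times the expectation (7.23 to 30.0). GM06990 had 0 contacts in that pair and SUM44 2.

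The level of the stretch could also be read from captured regions on other chromosomes, which share no captured fragment with the locus. From the 5 other captured regions, the 55 windows of 50 kb in the stretch held 1971 and 4888 contacts in BT483, 1352 and 2929 in GM06990, and 1322 and 1403 in SUM44. Relative to the median window of the genome outside the captured chromosomes, the mean window of the stretch was at 2.39 and 2.07 in BT483, 1.17 and 1.16 in GM06990, and 1.34 and 1.42 in SUM44. On this scale BT483 lay highest in both replicates and GM06990 lowest. This order was not particular to the stretch. The telomeric neighbour was at 2.52 ± 0.214 in BT483, 1.42 ± 0.0945 in GM06990 and 1.804 ± 0.0524 in SUM44 (SD, n = 2). The centromeric stretch was at 2.36 ± 0.541, 1.23 ± 0.0292 and 1.796 ± 0.0150 in the same lines (SD, n = 2). In the distal stretch, over the mean window of the genome, GM06990 and SUM44 overlapped, at 1.11 and 1.13 against 1.11 and 1.17. BT483 was again above both, at 2.09 and 1.85. Over the median window of chromosome 8 the values were closer, 1.34 ± 0.0136 in BT483, 1.11 ± 0.00558 in GM06990 and 1.21 ± 0.00912 in SUM44 (SD, n = 2). A trans level can reflect copy number and nuclear position alike, and here these cannot be told apart.

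By part of the stretch, the trans level went with the cis contacts in places only. GM06990 had the lowest mean trans level from 132200001 to 132700000, where its cis share was also lowest. It had the lowest in the part nearest the capture too, where its cis share was highest. From 132200001 to 132700000, where GM06990 made few cis contacts, its trans level was 1.13 ± 0.103, against 1.13 ± 0.0131 in the part nearest the capture (SD, n = 2). SUM44 was at 1.27 ± 0.137 and 1.5 ± 0.122 in the same parts, and BT483 at 2.38 ± 0.428 and 1.92 ± 0.205 (SD, n = 2). Both SUM44 replicates were thus lower in trans there than in the part nearest the capture, and the BT483 mean was higher. In the last part the trans level was 0.746 ± 0.180 in GM06990 and 0.761 ± 0.0707 in SUM44 (SD, n = 2), the lowest of the 6 parts in every replicate of these lines. The BT483 replicates were at 2.27 and 1.13 there, the lowest part in replicate 2 but not in replicate 1.

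**Figure D5:**
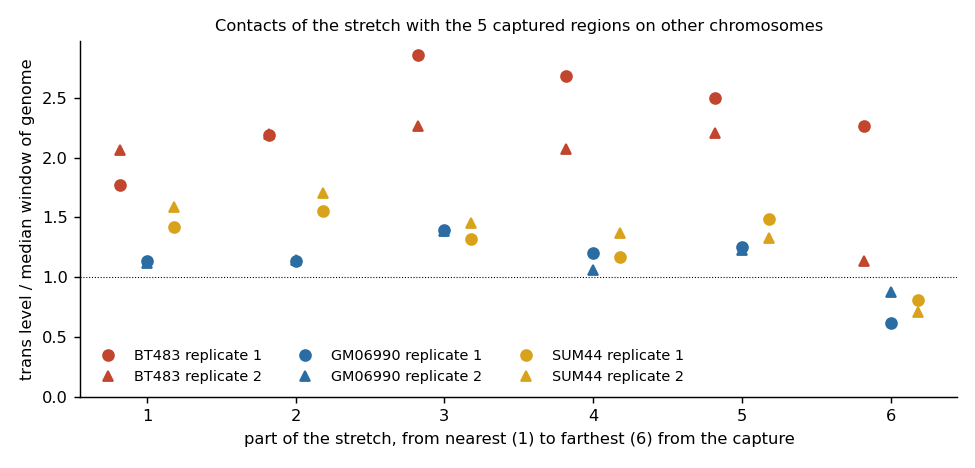
Mean contacts per 50 kb window with the 5 captured regions on other chromosomes, over the median window of the genome (vertical axis, from 0), in 6 consecutive parts of the stretch (horizontal axis), 1 symbol per replicate. BT483 lies above both other lines in every part, and its replicates differ most in part 6.

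Cis contacts were also read beyond the stretch. In the 500 kb from 133500001, contacts from 8q24.21 amounted to 11.1% ± 0.481 of those in the stretch in GM06990, 8.52% ± 0.155 in BT483 and 8.61% ± 0.393 in SUM44 (SD, n = 2). From 134000001 the values were 10.6% ± 0.328, 7.01% ± 0.447 and 6.44% ± 0.183 (SD, n = 2). GM06990 was above every breast line replicate in both. The divisor here is contacts with the stretch, whose mean share of near cis contacts was smallest in GM06990. That share was 10.8%, against 14.5% in BT483 and 13.3% in SUM44. These ratios alone thus do not show that GM06990 made more contacts beyond the stretch. Of the 3 further parts of 500 kb up to 136000000, GM06990 stayed above in those from 134500001 and 135500001. In the part from 135000001 BT483 was at 6.99% and 5.32% and GM06990 at 6.65% and 7.21%, which overlapped.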

How the data were processed

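Capture Hi-C counts of BT483, GM06990 and SUM44 were used as deposited, with 2 replicate columns per line. The authors deposited whole-number read pair counts per captured and target fragment; CASAVA 1.8 and GRCh37 are given per the submitters' processing notes, and the aligner is not given in the sources used here. Bait coordinates were read from the deposited list, and counts within the captured regions were not used. Per replicate and locus, expected counts came from a negative binomial regression on a cubic B-spline of log10 distance with 4 inner knots and the captured fragment's log count of trans contacts. Counts summed per fragment (minimum 50 contacts in 1 line), per 50 kb window and per captured fragment were tested with edgeR 4.0.16 (R 4.3.3), all 3 lines in 1 fit, with Benjamini-Hochberg adjustment and a threshold of 0.05. Pairs were called on the summed replicates (adjusted p of 0.01, 5 contacts). DESeq2 1.42.0, other scalings, filters, window sizes, replicate blocks and left-out replicates were alternatives, and the tests were tested on simulated data. Shares have exact Clopper-Pearson 95% intervals. Named were the 5 largest called changes each way per comparison for fragments without replicate overlap, 3 for windows and captured fragments, the 5 highest and lowest windows, the 5 highest captured fragments and the 3 lowest-p pairs per line. Members, lists and tests were chosen with earlier results of these data known. Promoter contacts were not analysed here. Python 3.11.15 was used.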

Additional observations from a re-analysis of the deposited data

Results flagged for a closer look

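The change against GM06990 differed between the breast lines, by the direct test of SUM44 against BT483, in 2 fragments and 4 windows of the stretch. The fragments started at 131851806 and 131846563, with log2 changes of 2.44 and 1.54. The windows started at 131800001, 132950001, 131750001 and 133050001, with log2 changes of 0.56, 0.56, 0.50 and 0.49. Both fragments reached the minimum of 50 contacts through SUM44 alone, the line in which they were higher. DESeq2 left both without an adjusted p. The minimum was taken over all replicates also when 1 was left out, so leaving out a replicate did not undo that selection. The edgeR call of the fragment from 131846563 depended on single replicates.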

How the results depend on the processing

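Target fragments called in BT483 against GM06990, SUM44 against GM06990 and SUM44 against BT483 numbered 108, 175 and 2 with near cis totals, 0, 564 and 666 with trans totals, 252, 202 and 18 with TMM factors, 27, 46 and 1 with the telomeric-side background, and 8, 15 and 0 with DESeq2. With a minimum of 200 contacts, which only 80 members reached, they numbered 7, 12 and 0. Higher and lower over all 2049 fragments tested were then 367 and 233, 552 and 377, and 8 and 1, in the same order. They numbered 38, 109 and 4 with a restricted cubic spline, against 423 and 291, 862 and 615, and 12 and 10 over all 5466. With fragments of at least 500 bp they were 22, 55 and 3. The last 2 alternatives were chosen after seeing the data. Windows called were 34, 32 and 2 with near cis totals, 0, 39 and 53 with trans totals, 52, 38 and 11 with TMM, 6, 11 and 1 with the telomeric side, 13, 22 and 2 with a minimum of 200, and 16, 35 and 2 at 25 kb. Captured fragments called were 42, 20 and 0 with near cis totals, 0, 177 and 182 with trans totals, 1, 4 and 3 with TMM, and 3, 1 and 1 with the telomeric side. They were 1, 0 and 0 with DESeq2 or the restricted spline, and 4, 6 and 0 with a minimum of 200.

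Leaving out 1 replicate at a time gave 2 to 70, 19 to 121 and 1 to 18 fragments, 2 to 23, 10 to 33 and 0 to 19 windows, and 1 to 3, 0 to 3 and 0 to 0 captured fragments. Pairs called in BT483, GM06990 and SUM44 were 10, 16 and 85 with a Poisson background. BT483 had 1 with target length added and 1 with the restricted spline. The observed over expected level of the stretch was 0.940, 0.949 and 0.936 with the telomeric-side background, 1.21 in GM06990 with distance only, and 1.17 in BT483, 1.19 in GM06990 and 1.22 in SUM44 with the restricted spline, which turned the order of BT483 and GM06990. The shares were 21.5%, 14.5% and 20.0% of telomeric near cis contacts, and the trans levels 1.34, 1.11 and 1.21 over the median of chromosome 8.

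Directions turned with scaling alone. Trans totals moved the median over all features to 1.57 for fragments and 1.34 for windows, and below those medians SUM44 against GM06990 was positive for the fragments from 131329058 (0.15), 133304413 (0.62), 131369094 (0.47), 130981031 (0.54) and 131000608 (0.55) and the windows from 131000001 (0.81), 131350001 (0.92) and 131300001 (0.96). These flips are fixed by the shift of all features. In BT483 the window from 133450001 was at 0.24 with near cis totals and 0.71 with TMM, that from 132900001 at 0.081 and 0.56, and the captured fragment from 128192178 at 0.41 with near cis totals, for which the cause was not tested.

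Deviations from line means correlated between lines at -0.00109 for BT483 and GM06990, -0.0317 for BT483 and SUM44, and 0.165 for GM06990 and SUM44. With so few columns per line, these values cannot decide whether columns of the same replicate number were prepared together. With the replicate number as a block, 27, 70 and 1 fragments, 14, 22 and 4 windows and 4, 6 and 0 captured fragments were called.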
